A study of Mus musculus with 9 samples.

Results

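The genes described here were 7 ubiquitin ligase genes of striated muscle (Fbxo32, Trim63, Trim54, Trim55, Fbxo30, Cblb and Stub1) and 3 genes of FoxO transcription factors (Foxo1, Foxo3 and Foxo4). They were taken by symbol from the count table, which held all 10 among its 13192 genes. The table came from RNA sequencing of heart apex samples of wild-type males of the strain C57BL/6J, 5 libraries from mice given AAV-Osm and 4 from mice given AAV-Null. Both vectors are adeno-associated viruses, injected at 1e+11 viral particles into the right gastrocnemius, a leg muscle, at 10 weeks of age, and the hearts were collected 12 weeks later. AAV-Osm delivers the gene of oncostatin M, a cytokine of the interleukin-6 family, and AAV-Null was the control vector. The study submitted 5 samples of each group and used 9 in its analysis. Its title names cardiac dysfunction, wasting of skeletal muscle and fibrosis as the effects of interest. What drives the vector's gene is not given in the sources used here. Osm itself was not analysed here, and the labels were therefore taken without a check on the vector's transcript.

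Muscle loses protein when the ubiquitin-proteasome system outpaces synthesis. Atrogin-1, the F-box protein encoded by Fbxo32, and MuRF1, the RING ligase encoded by Trim63, are the ligases whose transcripts increase in many forms of wasting. FoxO factors bind the promoters of both genes in starved or denervated skeletal muscle. AKT phosphorylates FoxO proteins and keeps them out of the nucleus, so FoxO activity is set largely by protein location, which transcript counts do not report. In the heart the same ligases also take part in turnover of sarcomere proteins and in limiting hypertrophic signalling.

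The RefSeq table of promoters (build GRCm38.p6), which gives 250 bases before and 50 after each gene's start, had a window for 7 of the 10 genes. Fbxo32, Trim55 and Foxo4 had no window, so neither sequence named below was searched for in their promoters. The core FoxO sequence GTAAACA was searched on both strands in the 7 windows. It was found in 1 of the 7 windows, that of Trim63, and in 3.65% of all 32851 windows. A match is a description of the letters only. The 250 bases before the start of Trim63, at chr4:134314870-134315119 on the plus strand, are shown because they hold that match, in capitals and read here on its reverse strand. The match begins 194 bases before the start.
Trim63: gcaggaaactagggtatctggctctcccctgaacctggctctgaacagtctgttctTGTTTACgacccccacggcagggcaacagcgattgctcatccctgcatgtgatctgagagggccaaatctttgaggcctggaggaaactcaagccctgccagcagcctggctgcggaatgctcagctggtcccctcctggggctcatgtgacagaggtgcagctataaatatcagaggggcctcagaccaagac
The STAT palindrome TTCNNNGAA, searched because oncostatin M acts through STAT factors, was found in 0 of the 7 windows and in 8.30% of all windows.

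Each library's counts in named genes summed to 11841106 to 24551980 in AAV-Osm and 18594875 to 30625134 in AAV-Null libraries. All 11 cardiomyocyte markers were present, and their summed level was 86575 to 116521 CPM (read counts scaled to a common library total with TMM factors) in AAV-Osm and 87258 to 110469 CPM in AAV-Null hearts. Of 9 markers of skeletal muscle, 5 were in the table and Myh1, Myh2, Myh4 and Pvalb were not analysed here. The 5, with Acta1 among them, summed to 331 to 626 CPM in AAV-Osm and 200.03 to 691 CPM in AAV-Null hearts. Liver-type markers, 13 of 15 in the table, summed to 59.9 to 147 CPM in AAV-Osm and 52.5 to 297 CPM in AAV-Null hearts, highest in AAV-Null 3 and AAV-Null 4. Mesothelial markers, 4 of 4 in the table, summed to 9.07 to 39.2 CPM in AAV-Osm and 38.3 to 121 CPM in AAV-Null hearts, lower in AAV-Osm with 1 library overlapping; their part in the results was not tested. Fibroblast markers (8 of 8) summed to 1086 to 1887 CPM in AAV-Osm and 1365 to 2291 CPM in AAV-Null hearts, and macrophage and endothelial sums overlapped likewise. Nothing in the labels states that every library is a separate mouse, and the p-values therefore cover the spread among these libraries alone, which may be technical.

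The comparison asked whether transcripts of this ligase and FoxO group differed between AAV-Osm and AAV-Null hearts. In edgeR's quasi-likelihood test, 0 of the 10 genes passed an adjusted p of 0.05 (Benjamini-Hochberg over all 13192 genes), where 0.121% of all genes did, 0.0834% higher and 0.0379% lower in AAV-Osm. Fbxo32 was the single member whose groups did not overlap, and the single member with an unadjusted p under 0.05, criteria met by 2.28% (1.05% with AAV-Osm higher) and 5.97% of all genes. The other 9 members had log2 fold changes (AAV-Osm over AAV-Null) between -0.05 and 0.32. The median over the 10 was 0.02, beside 0.01 over all genes tested. DESeq2 and limma-voom without weights also called 0 members, with 0.402% of all genes called by DESeq2. Limma-voom with sample quality weights called 1, Fbxo32, where 1.29% of all genes were called and 0.599% were called higher in AAV-Osm.

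Fbxo32 (chromosome 15, 58175879 to 58214892, minus strand, mm10, 9 exons) encodes atrogin-1, the substrate-binding part of an SCF ubiquitin ligase. It was at 262, 390, 331, 360 and 289 CPM in AAV-Osm 1 to 5, against 241, 232, 237 and 241 CPM in AAV-Null 1 to 4. Every AAV-Osm library lay above every AAV-Null library, and AAV-Osm 2 was highest. The means were 326 ± 51.8 CPM in AAV-Osm (SD, n = 5) and 238 ± 4.61 CPM in AAV-Null hearts (SD, n = 4). The log2 fold change was 0.46 (SE 0.14, 95% interval 0.15 to 0.76), or 1.37-fold (interval 1.11 to 1.69), with an edgeR adjusted p of 0.552. This is a difference that did not pass the threshold over all genes.

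The spread of Fbxo32 was unequal between the groups. The coefficient of variation was 15.9% in AAV-Osm and 1.94% in AAV-Null libraries, where counting error alone gives about 1.31% and 1.33%. The AAV-Null libraries thus lay close to the counting limit. The log2 fold change was positive in all 20 alternative fits, from 0.38 to 0.53, and adjusted p-values ran from 0.0380 to 0.9998. The weighted limma-voom fit, at 0.0380, was the single fit that called the gene. Its weights were lowest for AAV-Osm 5 (0.467) and AAV-Null 4 (0.344) and highest for AAV-Null 2 (3.35) and AAV-Null 1 (2.34).

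In bulk tissue, fewer cells of a type and less RNA per cell cannot be told apart. The cardiomyocyte marker sum was highest in AAV-Osm 2 (116521 CPM), the library with the highest Fbxo32, and lowest in AAV-Osm 1 (86575 CPM), the AAV-Osm library with the lowest Fbxo32. Fbxo32 did not follow the sum among AAV-Null libraries. There the sum was lowest in AAV-Null 1 (87258 CPM) and highest in AAV-Null 4 (110469 CPM), with Fbxo32 at 241 CPM each time. Per 1000 CPM of those markers, Fbxo32 was at 3.03, 3.35, 2.93, 3.41 and 3.29 CPM in AAV-Osm 1 to 5, against 2.77, 2.59, 2.48 and 2.18 CPM in AAV-Null 1 to 4. Scaling widened the relative spread among AAV-Null libraries, where the scaled value fell from 2.77 to 2.18 as the marker sum rose. The groups did not overlap on this scale either. The scale was chosen after the values were seen and carries no test.

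**Figure D1:**
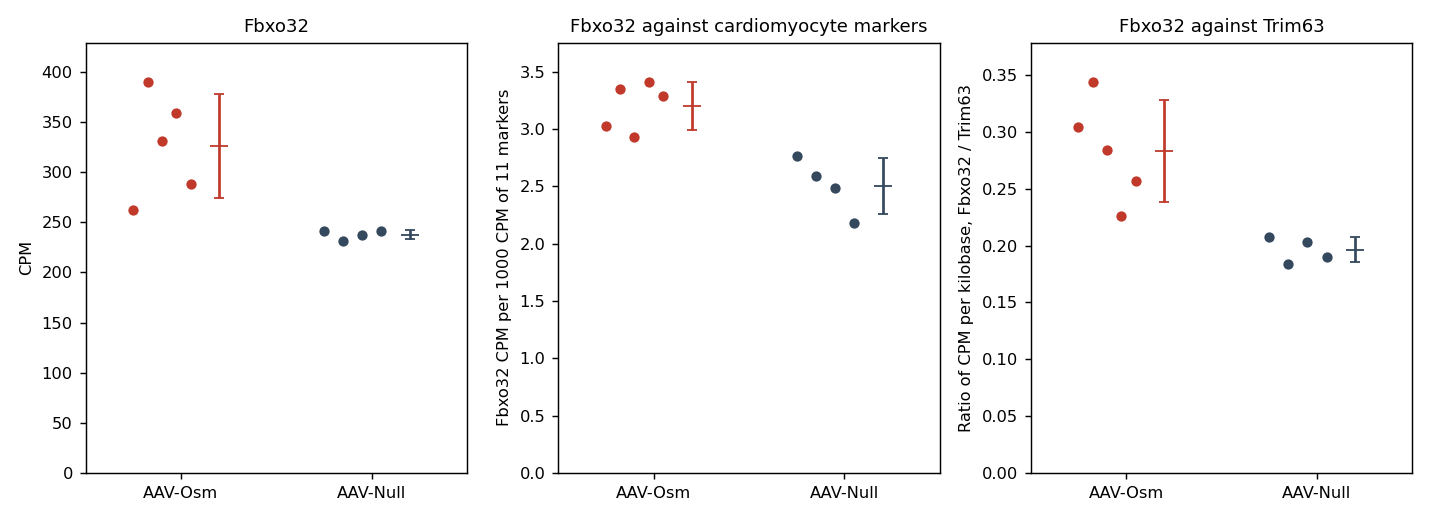
Fbxo32 in each library (points) with the mean and SD at the side, as CPM (left), per 1000 CPM of 11 cardiomyocyte markers (middle) and as the ratio of CPM per kilobase to Trim63 (right). On each scale the 5 AAV-Osm points, 262 to 390 CPM at the left, lie above the 4 AAV-Null points, 232 to 241 CPM.

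Fbxo30 (chromosome 10, 11281330 to 11297969, plus strand), which encodes the F-box protein MUSA1 that is induced in denervated muscle, was a much less abundant transcript. It had 14.1, 11.2, 13.4, 19.0 and 22.5 CPM in AAV-Osm 1 to 5, against 19.3, 19.7, 14.1 and 10.3 CPM in AAV-Null 1 to 4. The groups overlapped almost fully, with means of 16.0 ± 4.59 CPM in AAV-Osm (SD, n = 5) and 15.9 ± 4.48 CPM in AAV-Null hearts (SD, n = 4). Its log2 fold change of 0.01 (95% interval -0.49 to 0.52) leaves room for folds between 0.711 and 1.43.

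The MuRF genes encode RING ligases of the sarcomere that bind titin and microtubules and can pair with each other. Trim63 (MuRF1; chromosome 4, 134315120 to 134329629, plus strand) was at 234, 308, 316, 433 and 305 CPM in AAV-Osm 1 to 5, against 317, 342, 317 and 346 CPM in AAV-Null 1 to 4. In 4 of 5 AAV-Osm libraries it lay below the lowest AAV-Null value, in AAV-Osm 3 by a margin within rounding, and in AAV-Osm 4 it lay above the highest. Means were 319 ± 71.4 CPM in AAV-Osm (SD, n = 5) and 330 ± 15.7 CPM in AAV-Null hearts (SD, n = 4). The log2 fold change was -0.05 (SE 0.16, 95% interval -0.40 to 0.30, edgeR adjusted p = 0.987), and without AAV-Osm 4 it was -0.18, without AAV-Osm 1 0.05.

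Trim63 and Fbxo32, usually read together as markers of atrophy, were also compared within each library. Pearson's r of their log2 CPM was 0.23 over 9 libraries (exact permutation, adjusted p = 0.765). It was 0.68 among AAV-Osm and -0.29 among AAV-Null libraries. The ratio of Fbxo32 to Trim63 in CPM per kilobase was 0.305, 0.344, 0.285, 0.226 and 0.257 in AAV-Osm 1 to 5, against 0.207, 0.184, 0.204 and 0.190 in AAV-Null 1 to 4. The ratio did not overlap between the groups; it is a description of 2 members chosen with their values known, and the difference between their changes was not tested. The coefficient of variation of Trim63 was also larger in AAV-Osm (22.4%) than in AAV-Null libraries (4.75%).

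Trim54 (MuRF3; chromosome 5, 31116612 to 31137626, plus strand) ran from 446 to 702 CPM in AAV-Osm, with a median of 648, and from 534 to 695 CPM in AAV-Null hearts, with a median of 558. Of the AAV-Osm libraries 2 lay above and 2 below the whole AAV-Null range, and the log2 fold change was 0.01 (SE 0.17, 95% interval -0.36 to 0.38). Trim55 (MuRF2; chromosome 3, 19644460 to 19691599, plus strand) ran from 34.7 to 46.8 CPM in AAV-Osm and from 34.7 to 46.9 CPM in AAV-Null hearts. No AAV-Osm value of Trim55 fell outside the AAV-Null range, and its log2 fold change was 0.03 (SE 0.14, 95% interval -0.27 to 0.32). The transcripts of the 3 MuRF genes shared 0 runs of 75 bases, the read length, with each other in GENCODE vM21.

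Stub1 (CHIP; chromosome 17, 25830636 to 25833361, minus strand) encodes a U-box ligase that marks clients of Hsp70 and Hsp90 chaperones. It had 142, 189, 175, 127 and 109 CPM in AAV-Osm 1 to 5, against 106, 115, 170 and 206 CPM in AAV-Null 1 to 4. The AAV-Null range held all 5 AAV-Osm values, with means of 148 ± 33.1 CPM in AAV-Osm (SD, n = 5) and 149 ± 47.4 CPM in AAV-Null hearts (SD, n = 4). The log2 fold change was -0.01 (SE 0.22, 95% interval -0.48 to 0.46), and it was 0.43 without AAV-Null 3 and AAV-Null 4. Of the exon bases counted for Stub1, 41.0% overlap Jmjd8 on the opposite strand. Jmjd8 was counted at 30.9 to 38.5 CPM in AAV-Osm and 30.4 to 40.1 CPM in AAV-Null hearts, and the split of reads between them is uncertain, since the strand setting of the counting is not stated in the sources used here. Antisense genes on the opposite strand overlap 24.9% of the counted bases of Trim54, 12.1% of Foxo1 and 2.68% of Fbxo32, with the same uncertainty.

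Cblb (chromosome 16, 52031549 to 52208046, plus strand), a RING ligase that dampens growth factor and insulin signalling, was at 6.54, 5.56, 5.77, 7.40 and 8.88 CPM in AAV-Osm 1 to 5, against 6.22, 5.72, 5.82 and 5.28 CPM in AAV-Null 1 to 4. Of the AAV-Osm libraries 3 lay above the AAV-Null range, AAV-Osm 5 farthest. The log2 fold change was 0.25 (SE 0.18, 95% interval -0.13 to 0.62, edgeR adjusted p = 0.934). It rested on 85 to 187 counts per library.

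Foxo1 (chromosome 3, 52268337 to 52350109, plus strand), the factor most often tied to Trim63 induction, was at 39.9, 47.1, 47.2, 52.7 and 39.4 CPM in AAV-Osm 1 to 5, against 42.7, 37.0, 35.6 and 50.9 CPM in AAV-Null 1 to 4. A single AAV-Osm library exceeded the AAV-Null range. Its difference was 0.12 in log2 (SE 0.15, 95% interval -0.19 to 0.44). Foxo3 (chromosome 10, 42185786 to 42276742, minus strand), which drives Fbxo32 in fasted skeletal muscle, was counted at 62 to 111 reads per library. Foxo3 was at 4.23, 4.25, 6.47, 6.27 and 3.13 CPM in AAV-Osm 1 to 5, against 5.56, 3.95, 2.99 and 3.03 CPM in AAV-Null 1 to 4. Its log2 fold change of 0.32 had the widest 95% interval of the 10 members, -0.24 to 0.88. That fold change was 0.02 without AAV-Null 3 and AAV-Null 4, and 0.54 without AAV-Null 1. The exons used for Foxo3 covered 38.2% of its exon bases in GENCODE vM21.

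Foxo4 (chromosome X, 101254528 to 101260873, plus strand), the third FoxO factor found in muscle, varied least of the 10 among AAV-Osm libraries. It ran from 91.5 to 112 CPM in AAV-Osm and from 96.6 to 116 CPM in AAV-Null hearts, with coefficients of variation of 8.93% in AAV-Osm and 8.47% in AAV-Null libraries. On the log2 scale it differed by -0.02 (SE 0.12, 95% interval -0.29 to 0.24). For all 3 FoxO genes the groups overlapped, and 0 of 3 passed in edgeR, in DESeq2 or in limma-voom with or without weights.

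**Figure D2:**
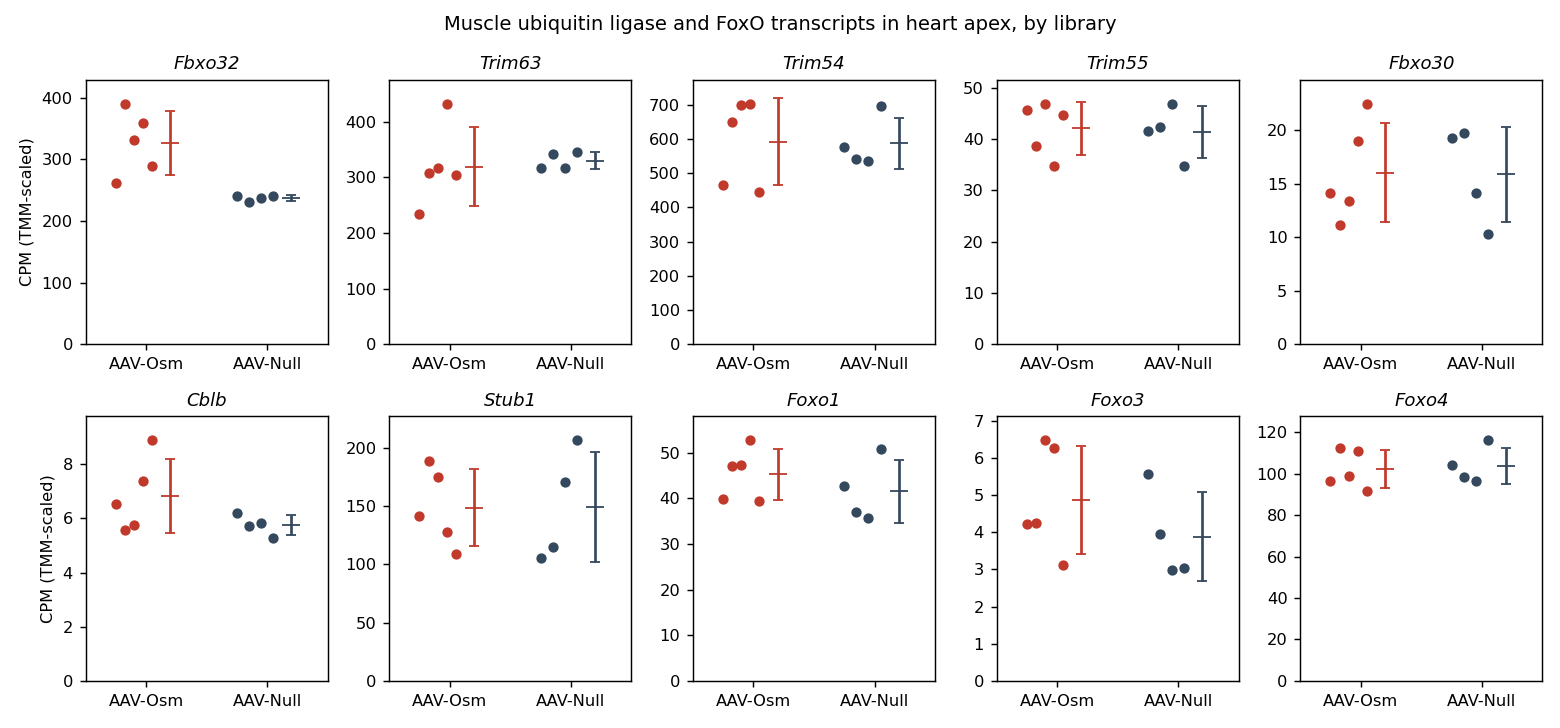
CPM of the 10 genes in each of 5 AAV-Osm and 4 AAV-Null libraries (points), with the mean and SD at the side of each group and axes from 0. Fbxo32 is the single panel in which the groups do not overlap; its AAV-Null points lie between 232 and 241 CPM.

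Levels between genes were compared per length, as CPM per kilobase of the exon length given in the table, over all 9 libraries. Trim54 was highest at 385 ± 65.7 CPM per kilobase (SD, n = 9), then Trim63 at 172 ± 27.4, Stub1 at 89.0 ± 22.3 and Fbxo32 at 41.4 ± 8.56. Foxo4 followed at 32.5 ± 2.67, Trim55 at 23.4 ± 2.69, Foxo1 at 7.85 ± 1.103, Fbxo30 at 3.12 ± 0.830, Foxo3 at 1.53 ± 0.472 and Cblb at 1.01 ± 0.180. By this scale Trim54 stood above 98.2% of all genes tested and Cblb above 20.1%. The order was the same in TPM.

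Most neighbours in that order were separated in every library. Fbxo32 exceeded Foxo4 in 8 of 9 libraries, AAV-Null 4 being the exception, and Foxo3 exceeded Cblb in 8 of 9, AAV-Osm 5 being the exception. The ranges of these neighbours overlapped across libraries, and differences between neighbours were not tested. Fbxo30 exceeded Foxo3 in all 9 libraries although their ranges overlapped. Among the 3 FoxO members the transcript of Foxo4 was thus the most abundant per length and that of Foxo3 the least. Foxo6, tested among the FoxO targets below, was not ranked here. The part of Foxo3 outside the exons used was not counted. The same limit holds for other members. The exons used covered 64.1% of Foxo1 and 90.7% of Foxo4 in GENCODE vM21. Among the ligases they covered from 60.4% of Cblb to 99.7% of Trim54.

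**Figure D3:**
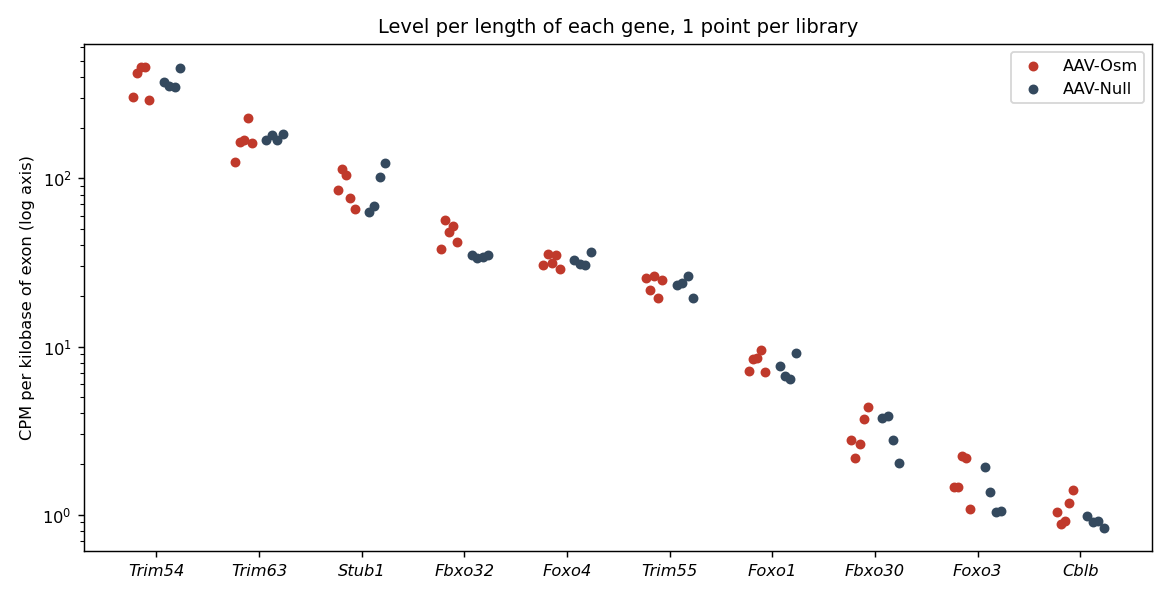
Level of each gene in CPM per kilobase of exon on a log axis, 1 point per library, AAV-Osm left of AAV-Null within each gene, genes ordered by their mean. Means run from 385 for Trim54 to 1.01 for Cblb.

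Some members varied together across libraries without regard to group. Over the 45 pairs of members, 2 passed an exact two-sided permutation test of Pearson's r on log2 CPM after Benjamini-Hochberg adjustment over the 45 pairs. Fbxo30 and Stub1 ran opposite to each other, with r = -0.96 over 9 libraries (exact permutation p = 0.000209, adjusted p = 0.00942) and Spearman's rho = -0.95 (exact permutation p = 0.000353, adjusted p = 0.0159). Without AAV-Osm 5 and AAV-Null 2, the libraries farthest from the median of Fbxo30, r was -0.94. Centred within groups, r was -0.96, with -0.96 among AAV-Osm and -0.97 among AAV-Null libraries.

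A property of the libraries moved with this pair. The median log2 deviation of 2540 genes with more than 5000 exon bases minus that of 3823 genes with fewer than 2000 was 0.08, -0.03, 0.00, 0.05 and 0.15 in AAV-Osm 1 to 5 and 0.21, 0.11, -0.22 and -0.34 in AAV-Null 1 to 4. Stub1 has 1672 exon bases in the table and Fbxo30 has 5114. AAV-Null 4 had the lowest long-to-short balance, the highest Stub1 and the lowest Fbxo30, and AAV-Null 1 had the highest balance and the lowest Stub1. The part of this balance in the pair's relation was not tested.

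Trim55 and Foxo4 were the other pair, with r = -0.89 (exact permutation p = 0.00215, adjusted p = 0.0483) and rho = -0.82 (exact permutation p = 0.0108, adjusted p = 0.124). Without AAV-Osm 4 and AAV-Null 4, r was -0.79 and its adjusted p = 0.373 by the exact permutation test, so r changed little with 7 libraries but the call was lost. Centred within groups, r was -0.89 with an exact permutation adjusted p = 0.0885. Trim54 and Foxo1 had r = 0.82 (exact permutation p = 0.0102, adjusted p = 0.120). This pair passed when centred within groups, at r = 0.88 (exact permutation, adjusted p = 0.0156), and without AAV-Osm 1 and AAV-Osm 5, at r = 0.96 (exact permutation, adjusted p = 0.0179). Which pairs passed besides Fbxo30 with Stub1 thus differed between the uncentred and the centred values. Centring also brought in Foxo1 with Foxo4 (r = 0.90), Fbxo30 with Cblb (r = 0.84) and Cblb with Stub1 (r = -0.78). Fbxo32 was in none of the pairs that passed. The points of each pair share library, depth and tissue makeup.

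**Figure D4:**
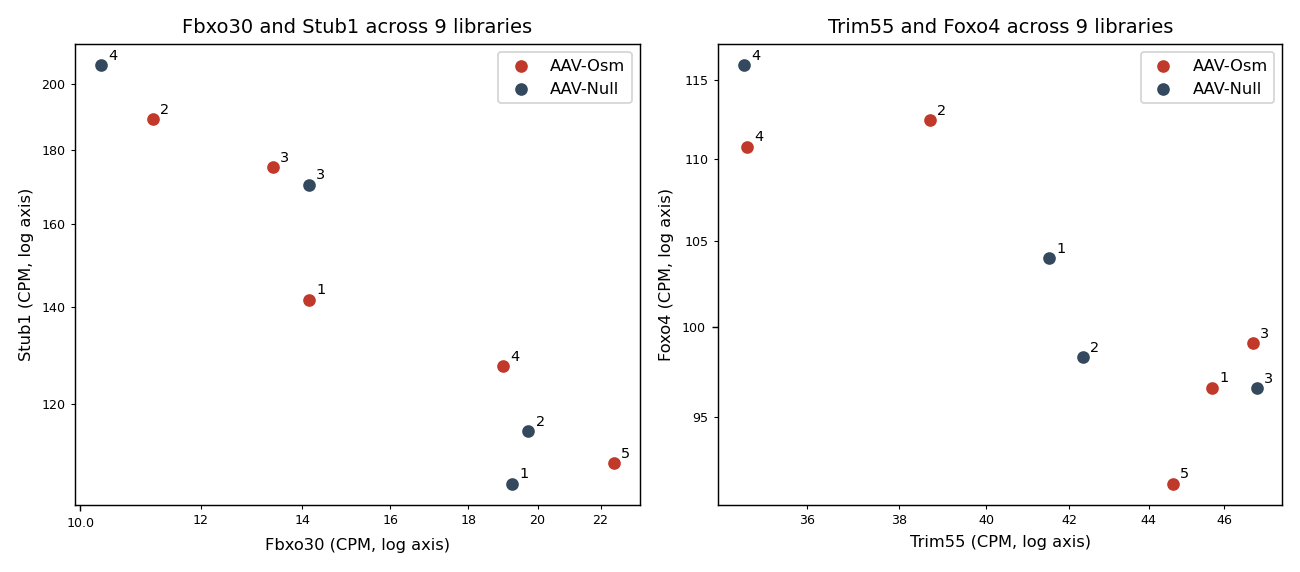
CPM of Fbxo30 against Stub1 (left) and of Trim55 against Foxo4 (right), both axes logarithmic, 1 numbered point per library. AAV-Osm and AAV-Null libraries lie along the same falling line in both panels, r = -0.96 at the left and -0.89 at the right.

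The genes whose log2 CPM was most like that of a member were sought among genes with a mean of at least 10 CPM, as a description with no test. For Fbxo32 they were Kdm5b, a histone demethylase gene (r = 0.94, rho = 0.97), Angptl4, whose product inhibits lipoprotein lipase (r = 0.91, rho = 0.93), and Htatip2 (r = 0.88, rho = 0.90), of 7616 genes ranked over 9 libraries. For Trim63 they were Fbxo6, an F-box gene (r = 0.99, with the same rank order of libraries), Vegfb (r = 0.96, rho = 0.87) and Slc39a3 (r = 0.96, rho = 0.83). For Foxo1 they were Rps4l, Cir1 and Tshz2 (r = 0.95, 0.94 and 0.94), and for Foxo3 Nhlrc2, Gbf1 and Strn (r = 0.93, 0.92 and 0.91). Without the 2 libraries farthest from the member's median, r was 0.97 for Trim63 with Fbxo6 and 0.72 for Fbxo32 with Htatip2.

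The wider pathway was described from lists that were chosen with earlier results of these data known. Of 23 other muscle ligase genes, 0 rose and 0 fell in edgeR, and the median log2 fold change was 0.09. At an unadjusted p under 0.05 there was 1, which is 4.35% beside 5.97% of all genes tested. That gene was Ubr4, of the N-degron pathway, at 69.5 ± 11.8 CPM in AAV-Osm (SD, n = 5) and 53.6 ± 6.44 CPM in AAV-Null hearts (SD, n = 4), with an edgeR adjusted p of 0.755. Trim72, the most abundant of the list per length and a membrane repair ligase, was at 599 ± 128 CPM in AAV-Osm (SD, n = 5) and 683 ± 34.9 CPM in AAV-Null hearts (SD, n = 4). For Huwe1, a HECT ligase, the log2 fold change was 0.28 (SE 0.14), and it was 0.11 without AAV-Null 3 and AAV-Null 4. That of Ubr4 was 0.37 with all libraries and 0.24 without AAV-Null 3 and AAV-Null 4.

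Of 21 tested genes for SCF partners, ubiquitin-activating and conjugating enzymes, deubiquitinases and ubiquitin itself, 0 rose and 0 fell in edgeR, 0 had an unadjusted p under 0.05 and the median was 0.03. Skp1a, the SCF adaptor that atrogin-1 binds, was at 154 ± 39.0 CPM in AAV-Osm (SD, n = 5) and 128 ± 15.6 CPM in AAV-Null hearts (SD, n = 4). Usp14, a deubiquitinase of the proteasome, differed by 0.31 (SE 0.19) on the log2 scale.

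Of 32 genes that set FoxO activity or location, 0 rose and 0 fell in edgeR, 0 had an unadjusted p under 0.05 and the median was 0.02. Akt2, a kinase that inhibits FoxO factors downstream of insulin, was at 134 ± 20.1 CPM in AAV-Osm (SD, n = 5) and 110 ± 10.7 CPM in AAV-Null hearts (SD, n = 4), which is 0.28 (SE 0.14) as a log2 difference. Stk4, a kinase that activates them, differed by 0.37 (SE 0.20) on that scale. Ywhae, which encodes an adaptor that holds phosphorylated FoxO in the cytoplasm, differed by 0.03 (SE 0.12).

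Of 38 tested genes reported as FoxO targets outside the ligases, 0 rose and 2 fell, and 36 did not pass. The genes that fell were Cdkn1a, a cell cycle inhibitor (log2 fold change -1.23, SE 0.19, edgeR adjusted p = 0.0331), and Ddit4, an inhibitor of mTOR signalling (-1.15, SE 0.19, edgeR adjusted p = 0.0427). Both also respond to p53 or glucocorticoids. The Cdkn1a call was lost without AAV-Osm 1, 2, 3 or 5 or AAV-Null 1, 2 or 4, and the Ddit4 call without any of the 5 AAV-Osm libraries or AAV-Null 1, 2 or 4. Leaving out AAV-Osm 5 and AAV-Null 4 together ended both calls, with edgeR adjusted p-values of 0.0924 for Cdkn1a and 0.0797 for Ddit4. The Ddit4 call was also lost without AAV-Null 3 and AAV-Null 4 (edgeR, 0.0849), with unweighted limma-voom (0.0533) and after a filter at more than 5 CPM in at least 4 libraries (edgeR, 0.0565). Across these fits that left out 1 library, the log2 fold change of Cdkn1a was -1.40 to -1.14 and that of Ddit4 -1.27 to -0.96.

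The same list had 30 of 38 positive log2 fold changes, 78.9%, beside 51.9% of all genes tested, and a median of 0.14. At an unadjusted p under 0.05 it had 9 genes, 7 higher and 2 lower, 23.7% beside 5.97% of all genes. The list was chosen with earlier results of these data known, so these shares are a description and were not tested. Besides Cdkn1a and Ddit4, the groups did not overlap for Txnip, Bcl2l11 and Insr, which are named after their values were seen. Over all genes tested, the groups did not overlap for 2.28%. Txnip, which encodes a thioredoxin-binding protein that lowers glucose uptake, ran from 308 to 523 CPM in AAV-Osm and from 180 to 278 CPM in AAV-Null hearts (edgeR log2 fold change 0.93 with an adjusted p of 0.114; DESeq2 and weighted limma-voom called it). Bcl2l11, a pro-apoptotic gene, ran from 7.24 to 10.1 CPM in AAV-Osm and from 4.41 to 6.50 CPM in AAV-Null hearts (edgeR log2 fold change 0.65 with an adjusted p of 0.475; weighted limma-voom called it, at 0.79 with 0.0228). Insr, the insulin receptor, ran from 87.6 to 108 CPM in AAV-Osm and from 61.2 to 84.6 CPM in AAV-Null hearts (edgeR log2 fold change 0.39 with an adjusted p of 0.622).

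Of 26 tested genes for inputs to the ligase genes (glucocorticoid, activin, cytokine and stress signalling), 0 rose and 0 fell in edgeR, with a median of 0.01. At an unadjusted p under 0.05 there were 3, all higher, which is 11.5% beside 5.97% of all genes tested. These were Osmr, the specific chain of the oncostatin M receptor, at 0.86 (SE 0.25) on the log2 scale, Il6st, which encodes its partner gp130, at 0.52 (SE 0.19), and Socs3, a feedback inhibitor of this receptor family named after its values were seen, at 0.54 (SE 0.22). The edgeR adjusted p-values were 0.497 for Osmr, 0.648 for Il6st and 0.779 for Socs3. Weighted limma-voom called Il6st, at 0.66 with an adjusted p of 0.0406. Nfkbia, the feedback inhibitor of NF-kappaB, was at 69.5 ± 13.9 CPM in AAV-Osm (SD, n = 5) and 86.0 ± 16.5 CPM in AAV-Null hearts (SD, n = 4). The groups did not overlap for Srebf1, a lipid synthesis factor named after its values were seen, nor for 2.28% of all genes tested. Srebf1 was at 19.8 to 22.3 CPM in AAV-Osm and 16.3 to 19.4 CPM in AAV-Null hearts.

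Of 23 tested substrates or partners of the MuRF ligases and atrogin-1, 0 rose and 0 fell in edgeR, with a median of 0.11. The 2 at an unadjusted p under 0.05 were 8.7% of the list, beside 5.97% of all genes tested. Tcap, the titin cap protein, was at 2238 ± 505 CPM in AAV-Osm (SD, n = 5) and 1469 ± 480.4 CPM in AAV-Null hearts (SD, n = 4), a difference of 0.61 (SE 0.23) in log2. For Myh7, the slow myosin heavy chain, the difference was 0.78 (SE 0.33), and for Myl2, the ventricular light chain, -0.0046 (SE 0.18). Weighted limma-voom called Tcap, at 1.06 with an adjusted p of 0.0159.

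Of 13 chaperones and cochaperones that work with CHIP, 0 rose and 0 fell in edgeR, and the median was -0.18. The 2 at an unadjusted p under 0.05, both lower, were 15.4% of the list, beside 5.97% of all genes tested. Hsp90aa1, the inducible cytosolic Hsp90, was at 326 ± 58.7 CPM in AAV-Osm (SD, n = 5) and 473 ± 101 CPM in AAV-Null hearts (SD, n = 4), which in log2 is -0.54 (SE 0.18) with an edgeR adjusted p of 0.582. Weighted limma-voom called it, at -0.76 with an adjusted p of 0.0214. Hsp90ab1 differed by -0.32 (SE 0.16), and the inducible Hspa1b, at 3.25 ± 3.03 CPM in AAV-Osm (SD, n = 5) and 9.45 ± 7.92 CPM in AAV-Null hearts (SD, n = 4), by -1.58 (SE 0.67).

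**Figure D5:**
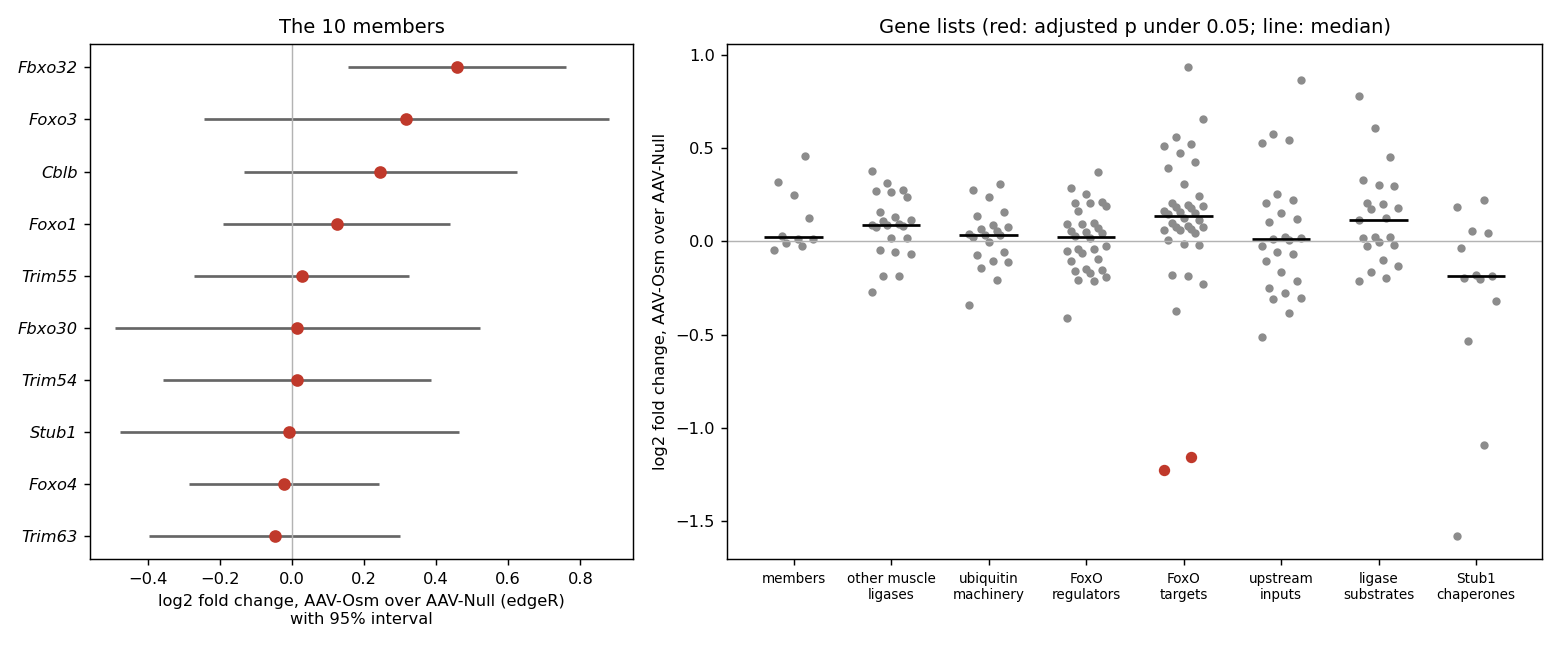
Left, log2 fold changes (AAV-Osm over AAV-Null) of the 10 genes with 95% intervals from edgeR; Fbxo32 at 0.46 is the single interval that lies wholly on one side of 0. Right, every tested gene of each list as a point with the median as a line; the red points, past an adjusted p of 0.05, are Cdkn1a and Ddit4, 0 of the 10 members among them.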

How the data were processed

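Heart apex RNA of 9 samples was analysed. Per the labels' protocols, mRNA-enriched libraries were read as 75-base paired ends and mapped with STAR; STAR was version 2.5.2b, featureCounts and Subread 1.5.1 are both listed, and the build was mm10, per the submitters' processing notes. The authors deposited unnormalized whole-number counts for each gene. Exon lengths came from the same table. Its 4141 blank lines were left out. The annotation, the strand setting and the rule for multi-mapped reads: not given in the sources used here.

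Counts were tested with edgeR 4.0.16 (R 4.3.3, TMM factors, robust quasi-likelihood F test, group as the only term); filterByExpr removed 0 of 13192 genes. Intervals are 95%, from the standard error and the test's degrees of freedom. DESeq2 1.42.0 and limma 3.58.1 were alternatives. Correlations used log2 CPM with a prior count of 2. Tested on data simulated from these libraries, over 13192 genes, edgeR recovered 13 of 50 genes changed 1.5-fold, 35 of 50 changed 2-fold, 47 of 50 changed 3-fold and 50 of 50 changed 4-fold.

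The members and lists were chosen with earlier results of these data known. Of each other list the text names up to 3 genes past the threshold or, where none passed, the 2 with the smallest p and the most abundant per length; 1 such gene is not reported here. It also names the 3 genes most like Fbxo32, Trim63, Foxo1 and Foxo3. The lowest chi-square per degree of freedom between any 2 libraries, over genes with at least 10 counts, was 6.52 (AAV-Null 1 and 2), so each library was counted once.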

Additional observations from a re-analysis of the deposited data

How the results depend on the processing

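No paired analysis was run, because the labels give nothing that pairs an AAV-Osm library with an AAV-Null library. The count of genes past the threshold, 16 with all libraries, was 53 with DESeq2, 170 with weighted limma-voom, 5 after a filter at more than 5 CPM in at least 4 libraries, and 4 to 11 with 1 library left out in turn. The count of members past it was 1 with weighted limma-voom and 0 under the other alternatives. Of 199 values of the members under the alternatives, 36 had the other sign, each of a gene near 0 in the main fit. Those of Fbxo30 reached -0.40 and those of Stub1 reached 0.43. With library totals only, log2 fold changes were -0.028 for Trim54, -0.0068 for Trim55, -0.019 for Fbxo30 and -0.025 for Jmjd8. With limma-voom they were -0.0052 for Trim54, 0.020 for Stub1 and 0.0073 for Myl2. With quality weights they were -0.020 for Trim55, -0.40 for Fbxo30, 0.42 for Stub1, 0.048 for Foxo4 and 0.26 for Myl2, and with upper-quartile factors 0.00097 for Myl2. With AAV-Null 3 and AAV-Null 4 left out, log2 fold changes were -0.28 for Fbxo30, 0.43 for Stub1, 0.013 for Foxo4 and 0.25 for Myl2. With AAV-Osm 5 and AAV-Null 4 left out, log2 fold changes were -0.070 for Trim55, -0.30 for Fbxo30, 0.28 for Stub1, 0.072 for Foxo4 and 0.18 for Myl2. With 1 library left out in turn they ran from -0.18 to 0.046 for Trim63, -0.057 to 0.10 for Trim54, -0.049 to 0.093 for Trim55, -0.14 to 0.14 for Fbxo30, -0.14 to 0.19 for Stub1, -0.060 to 0.035 for Foxo4, -0.0079 to 0.075 for Ywhae, -0.084 to 0.14 for Myl2 and -0.058 to 0.073 for Jmjd8. The cause of these changes was not tested. Pairs of members past the threshold numbered 2, and 5 when values were centred within groups. The scaling of Fbxo32 to cardiomyocyte markers and the long-to-short balance were chosen after seeing the data. Foxo3 had no value under the filter at 5 CPM. Foxo3 and Cblb had the fewest reads of the 10, with lowest counts of 62 for Foxo3 (AAV-Null 4) and 85 for Cblb (AAV-Osm 4).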
